A study of Mus musculus with 5 samples.

Results

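The transcription factors of stratified epithelium described here were Trp63, Klf4, Klf5, Grhl1, Grhl2, Grhl3, Elf3, Ehf, Zfp750 and Ovol1. These 10 genes were taken by name from the gene lists of 5 single-cell RNA-seq libraries of mouse submandibular salivary gland. The lists held 31053 genes for 4 of the libraries and 32285 genes for the other, and all 10 genes were in both. Each organoid library held unique molecular identifiers (UMIs, counts of single captured mRNA molecules) of all 10 genes, and the fresh tissue library held UMIs of 9, with none of Grhl3.

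Mouse salivary gland organoids (mSGOs) are grown from dissociated gland cells embedded in Matrigel, a gel of basement membrane proteins. The groups were untreated mSGOs collected on day 7 (control), mSGOs given 7 Gy of photons or 7 Gy of protons on day 5 and collected on day 7, untreated mSGOs collected on day 11, and freshly dissociated gland. The animals were female C57BL/6 mice, and the methods of the study give them an age of 8 to 12 weeks. The 7-day mSGOs came from 4 animals in a single library per group, so the animals cannot be told apart. The 11-day mSGOs came from other animals and another run, so time in culture, animals and run cannot be told apart. All mSGOs grew in WRY medium, which holds the growth factors EGF and FGF2, Wnt3a and R-spondin1 from conditioned media, N2, insulin, dexamethasone and the ROCK inhibitor Y27632, so the controls share these agents with the irradiated mSGOs. Protons were given at the plateau of their depth dose. From each sample, 45000 cells that excluded propidium iodide were sorted and loaded, and each group held 1 library. There were therefore no replicates, no difference was tested, and every interval below is at the 95% level and covers counting error only.

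Stratified epithelia renew from a basal layer whose daughter cells move outward and build a barrier. p63, encoded by Trp63, maintains basal identity, whereas grainyhead-like, KLF and ETS family factors together with ZFP750 and OVOL1 control cell junctions, the exit from proliferation and terminal differentiation. The salivary gland itself is not a stratified tissue, but its ducts hold keratin 5 and keratin 14 positive basal cells and its acini are wrapped by myoepithelial cells, and both of these cell types are known to carry p63.

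Promoter sequences were found for 4 of the 10 genes, Klf4, Grhl1, Grhl3 and Elf3, in RefSeq windows of GRCm38.p6 that run from 250 bases before to 50 bases after a gene start. They are shown because these genes belong to the group that was lower at day 11, and because grainyhead and KLF proteins are themselves factors whose recognition letters can be looked for. The motifs searched on both strands were the GC box GGGCGG, the CACCC box CACCC, both known as letters bound by KLF and SP proteins, the grainyhead core AACCGG and the TATA box TATAAA. Capitals mark these matches, and matches may overlap one another. The windows were chr1:135258423-135258722 (minus strand) for Elf3, chr4:135573583-135573882 (minus strand) for Grhl3, chr12:24572037-24572336 (plus strand) for the upstream start of Grhl1 and chr4:55532426-55532725 (minus strand) for Klf4.
Elf3: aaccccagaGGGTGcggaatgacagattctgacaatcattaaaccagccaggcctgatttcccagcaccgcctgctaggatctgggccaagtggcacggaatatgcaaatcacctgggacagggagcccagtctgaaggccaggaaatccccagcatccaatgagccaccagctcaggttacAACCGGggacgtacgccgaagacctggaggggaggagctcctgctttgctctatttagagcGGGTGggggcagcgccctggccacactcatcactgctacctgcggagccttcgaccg
Grhl3: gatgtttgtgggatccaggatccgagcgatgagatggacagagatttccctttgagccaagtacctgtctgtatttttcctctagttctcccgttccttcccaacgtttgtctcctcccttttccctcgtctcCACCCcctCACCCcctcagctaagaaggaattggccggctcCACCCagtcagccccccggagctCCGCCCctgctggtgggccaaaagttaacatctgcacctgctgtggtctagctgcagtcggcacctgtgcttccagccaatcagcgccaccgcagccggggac
Grhl1: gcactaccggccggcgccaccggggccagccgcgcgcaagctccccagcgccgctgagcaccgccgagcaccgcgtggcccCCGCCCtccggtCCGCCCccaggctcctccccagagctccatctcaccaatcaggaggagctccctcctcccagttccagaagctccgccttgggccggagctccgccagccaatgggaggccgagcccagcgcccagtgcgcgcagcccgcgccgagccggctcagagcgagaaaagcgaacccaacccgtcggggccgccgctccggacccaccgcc
Klf4: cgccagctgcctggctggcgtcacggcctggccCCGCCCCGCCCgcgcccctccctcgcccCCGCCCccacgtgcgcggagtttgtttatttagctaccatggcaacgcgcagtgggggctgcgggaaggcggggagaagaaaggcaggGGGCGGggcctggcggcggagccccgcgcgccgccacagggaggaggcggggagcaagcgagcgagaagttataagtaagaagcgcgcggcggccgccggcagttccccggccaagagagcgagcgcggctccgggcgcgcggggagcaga

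The Elf3 window held 1 grainyhead core, 68 bases before the start, and 2 CACCC boxes. The Grhl3 window held 3 CACCC boxes and 1 GC box, the Grhl1 window shown held 2 GC boxes, and the Klf4 window held 4 GC boxes and no CACCC box. A downstream start of Grhl1 at chr12:24580469-24580768 (plus strand) held 2 CACCC boxes and no GC box. None of the 5 windows held TATAAA. Among 32851 RefSeq windows of the same length, 35.7% held the GC box letters, 57.5% the CACCC box, 6.83% the grainyhead core and 13.6% the TATA box. These matches describe letters only.

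Filters on detected genes, mitochondrial share and doublets left 6494 control, 16929 photon, 15325 proton, 9484 day-11 and 1402 tissue barcodes, with 5925403 (tissue) to 32102942 (day 11) UMIs. The median UMIs per barcode were 899 to 1064 at day 7, 3026 at day 11 and 2378 in tissue. Pairs of libraries shared 33 to 98 barcodes. The libraries also differed in Malat1, a transcript retained in the nucleus: it made up at least 1% of the UMIs of 8.96% to 16.0% of kept 7-day barcodes, 98.8% of day-11 barcodes and 11.3% of tissue barcodes. The main ratios are therefore also given over barcodes with this Malat1 share. The file headers name software version 7.0.0 for the day-11 matrix and 3.0.1 for the other 4. The tissue library was poor in the defining markers of the basal duct, with 7.26 CPM for Krt5, Krt14 and Krt15 together, while its immune markers summed to 4688 CPM. Here CPM is the sum of a gene's UMIs over kept barcodes, scaled to a fixed total of 1000000 UMIs per library, and such a sum does not tell fewer cells of a type from less RNA per cell.

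Trp63, the basal identity factor, was at 67.9 CPM in control, 56.9 in photon, 61.8 in proton, 171 in day-11 mSGOs and 0.169 CPM (1 UMI) in tissue. The 7-day libraries lay close together, and neighbouring intervals among them overlapped, while day 11 stood above and tissue far below. Among the Krüppel-like factors, Klf4, which is needed for a working skin barrier, had 161 CPM in control, 177 in photon, 146 in proton, 84.8 at day 11 and 29.0 in tissue, with all 5 intervals apart. Klf5, known for its role in proliferating basal cells, had 133 CPM in control, 133 in photon, 164 in proton, 146 at day 11 and 2.19 in tissue. Only the control and photon intervals of Klf5 overlapped, and proton was the highest library.

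The grainyhead-like factors differed from one another across the libraries. Grhl1, a regulator of desmosomal cadherins, had 54.7 CPM in control, 42.9 in photon, 42.0 in proton, 26.4 at day 11 and 6.75 in tissue. Grhl2, which maintains E-cadherin and claudins, had 20.3 CPM in control, 20.5 in photon, 19.3 in proton, 53.5 at day 11 and 2.03 in tissue. Grhl3, required for barrier formation in skin, had 10.9 CPM in control, 7.19 in photon, 9.41 in proton and 1.62 at day 11, and no UMI in tissue, where a count of 0 allows up to 0.506 CPM (3 counts). Thus Grhl2 was highest at day 11, whereas Grhl1 and Grhl3 were highest in the 7-day libraries. The photon and proton intervals of Grhl1 overlapped, as did the neighbouring 7-day intervals of Grhl2 and of Grhl3.

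Elf3 and Ehf are epithelial ETS factors, of which ELF3 is known for inducing terminal differentiation genes. Elf3 had 206 CPM in control, 166 in photon, 177 in proton, 29.5 at day 11 and 16.5 in tissue, and no intervals overlapped. Ehf had 216 CPM in control, 226 in photon, 229 in proton, 377 at day 11 and 50.5 in tissue, with overlapping neighbours among the 7-day libraries. In CPM these related genes therefore differed in where day 11 stood, below all 7-day libraries for Elf3 and above them for Ehf. Zfp750, a p63 target needed for terminal differentiation, had 65.8 CPM in control, 76.9 in photon, 71.8 in proton, 10.1 at day 11 and 3.88 in tissue. Ovol1, a zinc finger repressor that restrains proliferation in differentiating epidermis, had 12.2 CPM in control, 6.27 in photon, 6.54 in proton, 0.716 at day 11 and 0.338 CPM (2 UMIs) in tissue. Neighbouring 7-day intervals of Zfp750 overlapped, and so did those of Ovol1 in photon and proton, and at day 11 and in tissue.

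**Figure D1:**
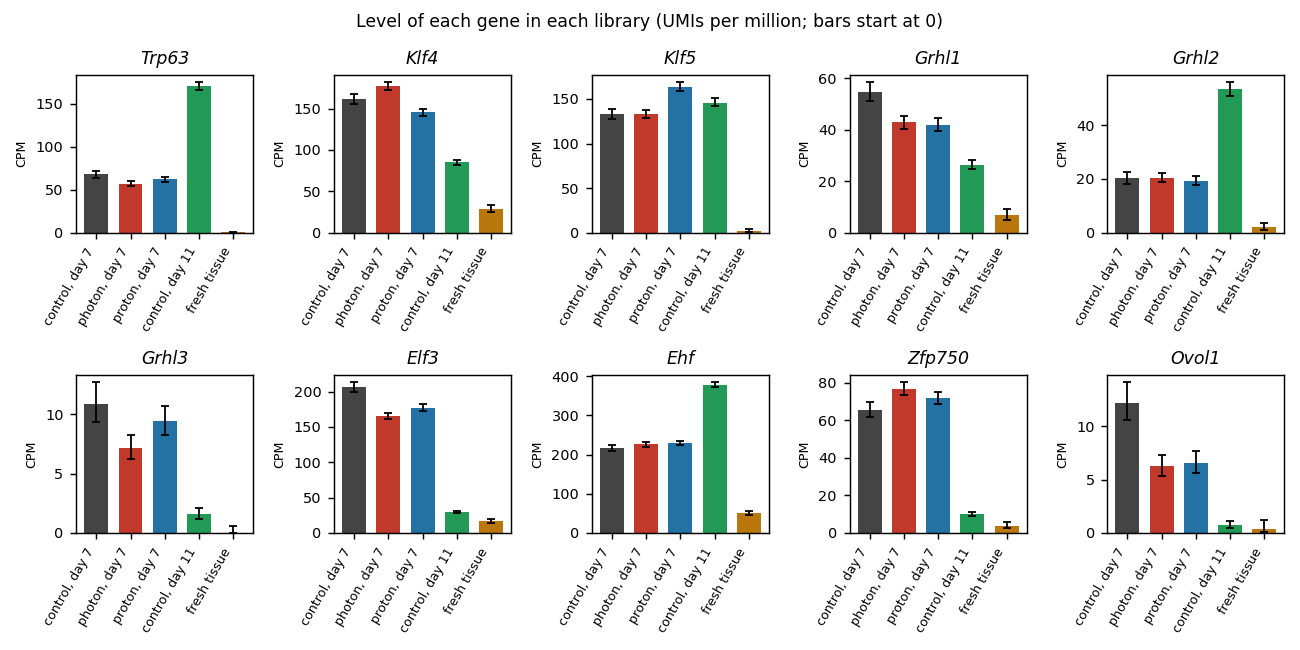
Level of each of the 10 genes in the 5 libraries, as bars that start at 0, in CPM over all kept barcodes, each gene on its own scale. Black lines are exact Poisson intervals at the 95% level. Trp63, Grhl2 and Ehf were highest at day 11 in CPM (Ehf turns under median-of-ratios scaling), and all 10 genes were lowest in tissue, where the Ovol1 interval overlaps that of day 11.

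The genes of this set lie on 9 chromosomes in the GENCODE vM39 annotation of GRCm39, which gives gene positions and not the build used for counting. Trp63 spans chr16:25502513-25710852 (plus strand), Klf4 chr4:55527139-55532528 (minus), Klf5 chr14:99536086-99552473 (plus), Grhl1 chr12:24622197-24669816 (plus), Grhl2 chr15:37233280-37363813 (plus) and Grhl3 chr4:135268329-135300992 (minus). Elf3 spans chr1:135181306-135188999 (minus), Ehf chr2:103093778-103133623 (minus), Zfp750 chr11:121401804-121410620 (minus) and Ovol1 chr19:5599164-5610674 (minus). Grhl2 overlaps Ncald and Zfp750 overlaps Tbcd, each on the opposite strand, and Gm27005 lies on the strand of Trp63 within its span. The gene span, introns included, ranged from 5.39 kb for Klf4 to 208 kb for Trp63.

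In the control, Ehf had at least 1 UMI in 29.4% of barcodes. Elf3 was detected in 26.9%, Klf4 in 22.0%, Klf5 in 20.4%, Zfp750 in 11.8%, Trp63 in 11.3%, Grhl1 in 9.18% and Ovol1 in 2.71%. After each barcode was thinned to 1000 UMIs, with shallower barcodes left out (2564 of 6494 remained), the shares were 17.8% for Ehf, 17.0% for Elf3, 6.36% for Trp63 and 0.936% for Ovol1. At day 11 the thinned shares were 29.1% for Ehf, 14.9% for Trp63, 2.43% for Elf3 and 0.771% for Zfp750. Endothelial cells should lack most of these factors. In the endothelial-like cluster of tissue (66 barcodes, median 3445 UMIs) Ehf was found in 4.55% of barcodes, and all of the others except Klf4 in 0 of 66, which allows up to 4.55% of such barcodes to hold a UMI and sets no limit on cells that express the gene. These barcodes were not thinned and belong to the tissue library, so they give no background level for the mSGO libraries, where shares of cells are not read as expression.

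For irradiation, the question was whether photons or protons given on day 5 changed gene expression in mSGOs by day 7. Most of these genes differed little from control. Ovol1 was the exception in both irradiated libraries. It was at 12.2 CPM in control (194 UMIs), against 6.27 in photon (170 UMIs) and 6.54 in proton mSGOs (162 UMIs). The log2 ratio of CPM, with a pseudocount of 1 CPM, was -0.87 for photons (interval -1.14 to -0.59), or 1.82-fold lower. For protons it was -0.81 (interval -1.09 to -0.54), or 1.76-fold lower. In either comparison Ovol1 alone among the 10 genes was at least 1.5 times lower than control with this pseudocount, and none was at least 1.5 times higher. For photons Grhl3 lay just inside that limit (10.9 CPM in control against 7.19, 1.46-fold lower) and passed it with a pseudocount of 0.1 CPM, with median-of-ratios scaling and with totals without the 50 highest genes. Among all genes tested (those with 50 UMIs or more in the compared libraries together), 2.09% were lower and 4.33% higher after photons, and 2.36% lower and 3.90% higher after protons. Both comparisons share the same control library, so the low Ovol1 ratio in one is not separate from that in the other.

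The other genes of the set differed by less than 1.5 times over all kept barcodes with a pseudocount of 1 CPM. Grhl1 was lower than control after photons (-0.35, interval -0.47 to -0.22) and after protons (-0.37, interval -0.50 to -0.24). Elf3 was likewise lower after photons (-0.31, interval -0.38 to -0.25) and after protons (-0.21, interval -0.28 to -0.15). Both genes thus lay below control in each irradiated library over all kept barcodes, although Elf3 turned to 0.20 for protons in barcodes with at least 2500 detected genes. Trp63 had log2 ratios of -0.25 (interval -0.36 to -0.14) for photons and -0.13 (interval -0.25 to -0.02) for protons, the latter moving to 0.01 with no limit on the mitochondrial share. Grhl3 had -0.54 (interval -0.81 to -0.27) for photons, whereas its proton interval held 0 (-0.20, from -0.46 to 0.07). Zfp750 was above control in both, at 0.22 (interval 0.12 to 0.33) for photons and 0.12 (interval 0.01 to 0.23) for protons, but this direction depended on the barcodes, since those with at least 2500 detected genes gave -0.16 and -0.64, the latter past 1.5 times lower. Ehf (0.07 and 0.08) and Grhl2 (0.01 and -0.07) stayed nearest to the control. The median log2 ratio of the 10 genes was -0.13 for photons and -0.14 for protons, and that of all genes tested was 0.09 in each comparison.

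Klf4 and Klf5 differed between the radiation types. Klf4 had a log2 ratio to control of 0.13 (interval 0.06 to 0.20) for photons and -0.14 (interval -0.22 to -0.07) for protons. Klf5 had 0.00 (interval -0.08 to 0.08) for photons and 0.30 (interval 0.22 to 0.37) for protons, the latter falling to -0.04 in barcodes with at least 2500 detected genes. Set directly against each other, proton mSGOs had less Klf4 (-0.28, interval -0.34 to -0.22) and more Klf5 (0.30, interval 0.23 to 0.36) than photon mSGOs. None of the 10 genes differed by 1.5 times between proton and photon mSGOs, against 0.462% of all genes higher and 0.618% lower.

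Over the barcodes with at least 1% Malat1, Grhl1 joined Ovol1 in passing 1.5 times for photons, with 66.3 CPM in control against 39.2 (log2 ratio -0.74, interval -0.95 to -0.54). Ovol1 had 12.2 CPM in control, 4.43 in photon (log2 ratio -1.28, interval -1.77 to -0.79) and 6.92 CPM in proton mSGOs (-0.74, interval -1.19 to -0.28). In barcodes thinned to 1000 UMIs the photon ratio of Ovol1 was -0.37 with an interval that held 0 (-0.99 to 0.28), and the proton ratio was -0.75 (-1.43 to -0.04). Grhl3, at -0.65 (interval -1.26 to -0.01), was instead the gene past 1.5 times for photons in the thinned barcodes, and Trp63 was at -0.55 (interval -0.80 to -0.30). Klf4 had a photon ratio of 0.00 in the Malat1 barcodes, and Klf5 had -0.24 for photons and 0.07 for protons. Zfp750 had 0.08 (interval -0.08 to 0.24) for photons and -0.05 (interval -0.21 to 0.12) for protons there, and Ehf turned to -0.19 (interval -0.28 to -0.10) for photons and -0.06 (interval -0.15 to 0.03) for protons. The 3 libraries differed in how many barcodes pass this Malat1 limit (16.0% in control, 9.36% in photon, 8.96% in proton), and the part of this in the differences over all barcodes was not tested. In the Malat1 barcodes 2 of the 10 genes were at least 1.5 times lower after photons (2.32% of all genes) and 1 after protons (3.32%), while 0 were higher in either (5.19% and 3.78% of all genes).

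The 7-day libraries were also clustered together with the 10 genes left out of the clustering, which gave 5 clusters that no marker set named. Ovol1 was lower than control in 5 of 5 clusters for each type of radiation. Its cluster levels ran from 11.6 to 19.0 CPM in control. They ran from 2.41 to 8.13 CPM in photon and from 5.55 to 6.93 CPM in proton mSGOs. The photon minimum rests on 3 UMIs and the control maximum on 12. Clusters of a library are not replicates, and how many of all genes show such an order was not counted. The Ovol1 intervals were apart in 3 clusters for photons and in 2 for protons. Elf3 was also below control in 5 of 5 clusters for each, with intervals apart in 2 for photons and 1 for protons. Klf5 was above control in 5 of 5 clusters for protons, with intervals apart in 2. Grhl1 was below control in 4 of 5 clusters for each, and its intervals were apart in the cluster numbered 4, at 67.6 CPM in control, 38.7 in photon and 43.9 in proton mSGOs.

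**Figure D2:**
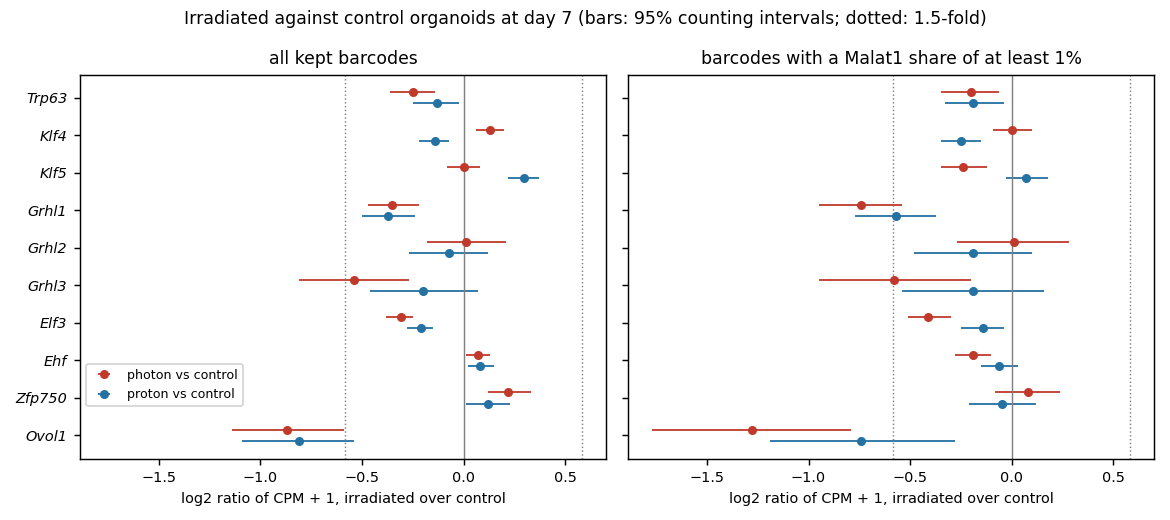
Log2 ratios of CPM to the control for the 10 genes in photon and proton mSGOs, over all kept barcodes and over barcodes with at least 1% Malat1, with intervals for counting error. Dotted lines mark 1.5 times, and Ovol1 lies past the lower line in both irradiated libraries over either set of barcodes.

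Genes linked to these factors gave the setting for these small differences. The lists were chosen from general knowledge, and genes below the minimum of 50 UMIs were not counted. The counts stand beside the shares of all genes tested, which were 4.33% higher and 2.09% lower after photons and 3.90% higher and 2.36% lower after protons. Of 19 p63-linked basal genes, 1 was at least 1.5 times higher and 2 were lower after photons (median 0.04), and 1 was higher and 1 lower after protons (median 0.02). The higher gene was Krt15, a basal keratin, with log2 ratios of 1.11 and 1.07. Of 15 grainyhead-linked epithelial genes, 0 were higher and 1 lower after photons (median -0.16), the tight junction gene Cldn4 at -0.60, and 0 differed by 1.5 times after protons (median -0.09). Among cornification genes, which build the outer layers of stratified epithelium, 2 of 27 were higher and 3 lower after photons (median 0.00), and 0 of 26 were higher and 7 lower after protons (median -0.22). Krtdap, a gene of differentiating keratinocytes, was at 600 CPM in control, 339 in photon (log2 ratio -0.82) and 220 in proton mSGOs (-1.44). Of 24 other regulators of stratified epithelium, 1 was higher and 0 lower after photons (median 0.20), the homeodomain gene Hopx at 0.83, and 2 were higher and 0 lower after protons (median 0.13), among them Tfap2c at 0.70. Of 7 gland regulators, 2 were higher and 0 lower in each comparison (medians 0.16 and 0.32), namely Sox9 (0.68 and 0.76) and the Notch target Hes1 (0.90 and 1.06). Over the Malat1 barcodes the p63-linked genes had 0 lower in either comparison, and Cldn4 was at -0.45 after photons, under 1.5 times, while 1 of 15 grainyhead-linked genes was lower after protons (-0.65). Of 22 cornification genes tested there, 5 were higher and 3 lower after photons (median -0.02), and of 21 tested 0 were higher and 5 lower after protons (median -0.13).

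The comparison of untreated mSGOs on days 11 and 7 asked how the culture changed with time. It split the set. Trp63, Grhl2 and Ehf were at least 1.5 times higher at day 11, and Klf4, Grhl1, Grhl3, Elf3, Zfp750 and Ovol1 were at least 1.5 times lower, while Klf5 lay between (log2 ratio 0.14, interval 0.07 to 0.21). Among all genes tested, 64.4% were higher and 8.39% lower, so 3 of 10 higher was below the share of all genes and 6 of 10 lower was above it. The largest differences were those of Ovol1 (-2.95, interval -3.23 to -2.62), Elf3 (-2.75, interval -2.86 to -2.65, or 6.74-fold lower), Zfp750 (-2.58, interval -2.75 to -2.42, or 6.00-fold lower) and Grhl3 (-2.18, interval -2.49 to -1.86). Ovol1 lay below 1 CPM at day 11, so that its ratio depends on the pseudocount, and it ran from -3.95 to -2.46 over the alternatives tried. Grhl1 (-1.02, interval -1.15 to -0.88) and Klf4 (-0.91, interval -0.99 to -0.83) differed less. The higher genes were Grhl2 (1.36, interval up to 1.53), Trp63 (1.32, interval 1.23 to 1.42) and Ehf (0.81, interval 0.75 to 0.86). The median was -0.96 for the 10 genes and 1.00 for all genes tested. Under a scaling that sets the median gene to 0 (median of ratios), Trp63 was at 0.32 and Grhl2 at 0.36, both under 1.5 times, while Ehf turned to -0.19 and Klf5 to -0.86, and the 6 lower genes were lower still.

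The ratio of day 11 to day 7 moved with the genomic span of a gene across all genes tested. The genes were split into 4 groups of equal size by span. In the group with spans up to 11.9 kb the median log2 ratio was 0.36 and 40.5% were at least 1.5 times higher. In the group with spans of at least 59.8 kb the median was 1.91 and 89.3% were higher. The 2 libraries also differed in the Malat1 share of their barcodes, the software version and the gene list, and the part of each in the ratios was not tested. Among the genes described here, Trp63 spans 208 kb, Grhl2 131 kb and Ehf 39.8 kb, while Elf3, Zfp750 and Ovol1 span 7.69, 8.82 and 11.5 kb. Relative to the median of genes in the same span group, all 10 log2 ratios were below 0. They were -0.59 for Trp63, -0.55 for Grhl2, -0.31 for Ehf and -0.60 for Klf5, against -2.13 for Grhl1 and -1.27 for Klf4. Those of Elf3 (-3.11), Zfp750 (-2.95), Grhl3 (-3.30) and Ovol1 (-3.31) remained the lowest. The higher levels of Trp63, Grhl2 and Ehf at day 11 were thus no higher than those of genes of like span, a comparison added after the data were seen. The group medians ran from 0.05 to 0.12 in the photon and proton comparisons and from -1.35 to -1.04 in that of tissue.

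**Figure D3:**
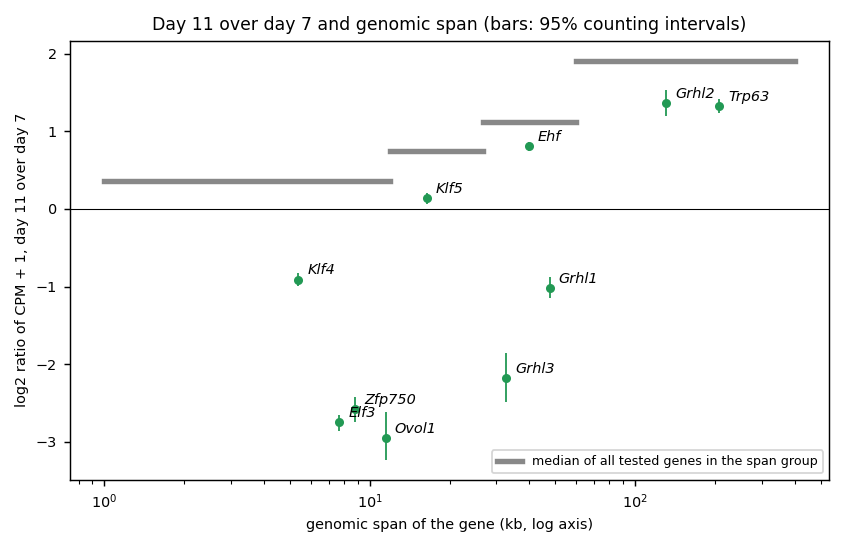
Log2 ratio of day-11 to day-7 mSGOs against genomic span in kb (log axis) for the 10 genes, with intervals, and the median of all tested genes in each of 4 span groups as grey horizontal lines, whose outer ends are cut at the plotted range. The group medians increase from 0.36 to 1.91 with span, and each of the 10 genes lies below the line of its group.

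Over barcodes with at least 1% Malat1 the day-11 ratios kept their signs except for Klf5 (-0.32), with 2 of the 10 genes at least 1.5 times higher (60.2% of all genes) and 6 lower (8.84%). Trp63 had 0.64, Grhl2 0.97 and Ehf 0.51, the last under 1.5 times, while Elf3 had -2.79, Zfp750 -2.86, Ovol1 -2.93 and Grhl3 -2.87. The related lists differed from one another over all kept barcodes, where their ratios were not set against genes of like span. Of 24 cornification genes tested, 1 was higher and 20 were lower at day 11 (median -2.63). The exceptions included Sprr1a, a cornified envelope precursor (578 to 2430 CPM, log2 ratio 2.07), whereas Cnfn was at 0.157 CPM at day 11 against 122 at day 7. Of 19 p63-linked basal genes, 7 were higher and 7 lower (median 0.21), from the growth factor receptor gene Fgfr2 at 3.44 to the desmosomal gene Perp at -2.51. Of 15 grainyhead-linked genes 3 were higher and 5 lower (median -0.29), with Macc1 at 3.57 and the transglutaminase gene Tgm1 at -2.56. Of 24 other stratified regulators 9 were higher and 6 lower (median 0.11), with Runx1 at 2.78 and Klf3 at -1.79. Of 9 gland regulators 7 were higher and 0 lower (median 1.78), with Tfcp2l1 at 3.56, a gene of gland ducts, in a comparison in which 64.4% of all genes were higher and their median was 1.00. Over the Malat1 barcodes the medians of the p63-linked genes and the other stratified regulators turned to -0.07 and -0.14.

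Over all kept barcodes fresh tissue was the lowest library for all 10 genes, each at least 1.5 times below the 7-day control. In this comparison 71.2% of all genes tested were lower and 9.38% higher, and the median of all genes was -1.22. Klf5 was at 2.19 CPM in tissue against 133 (log2 ratio -5.39, interval -5.96 to -4.82). Trp63, with 1 UMI in tissue, had a log2 ratio of -5.88 (interval -6.10 to -5.15), and Ovol1, with 2 UMIs, had -3.31 (interval -3.68 to -2.55). Grhl3, with 0 UMIs, was at least 21.6-fold lower, taking 3 counts over the library as the limit. Zfp750 (-3.77), Elf3 (-3.56), Grhl1 (-2.85) and Grhl2 (-2.82) followed, and Klf4 (-2.43) and Ehf (-2.08) differed least. The median of the 10 genes was -3.43, or -3.15 with genes at 0 set to the limit. The p63-linked basal genes were lower in 18 of 18 (median -4.76), with Krt5 at -9.98 and Krt14 at -9.78, and the cornification genes in 23 of 23 (median -6.08). The grainyhead-linked genes were lower in 14 of 15 (median -2.18), and of 11 gland regulators 5 were higher and 5 lower (median -0.09). In the 158 tissue barcodes with at least 1% Malat1, Klf4 was at 191 CPM against 234 in such control barcodes (log2 ratio -0.29, interval -0.55 to -0.05) and 84.5 at day 11, so that tissue was not the lowest library there, and Ehf was at 142 CPM (-0.90). These tissue barcodes held 2277 CPM of endothelial and 20501 CPM of immune markers, against 365 and 4688 CPM over all kept tissue barcodes.

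Within tissue the genes lay in different clusters. Klf4 was at 555 CPM (interval 463 to 659) in the endothelial-like cluster, which held 129 of the 172 Klf4 UMIs of tissue but 3.93% of all UMIs. Outside this cluster the Klf4 level of tissue was 7.55 CPM. KLF4 is also known as a factor of the endothelium that lines blood vessels. Ehf was at 100 CPM (interval 71.2 to 137) in the granular or striated duct-like cluster and at 84.0 CPM (interval 72.4 to 96.8) in the pro-acinar-like cluster. Elf3 was at 64.2 CPM (interval 41.5 to 94.7) in the former and 11.9 CPM in the latter. Elf3 was also among the top genes of an unnamed cluster of 369 barcodes. Grhl1 was at 12.8 and 10.2 CPM in the duct-like and pro-acinar-like clusters, and Zfp750 was at 12.8 CPM in the duct-like cluster. These levels rest on few UMIs, with 40 of Grhl1 and 23 of Zfp750 in all of tissue. The single Trp63 UMI lay in an erythroid-like cluster. That cluster also had 5 of 8 macrophage and 2 of 7 basal duct markers raised, and its basal keratins summed to 37.0 CPM.

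In day-11 mSGOs 9 of 11 clusters held nearly all barcodes, and 4 of these could be named from their markers. They were a cornifying-like (560 barcodes), a granular or striated duct-like (359), a myoepithelial-like (306) and a cycling-like cluster (123). In the cornifying-like cluster 3 of 7 luminal duct markers were raised beside 7 of 10 cornifying markers. Its simple keratins summed to 3692 CPM, against 4412 in the duct-like cluster and 1680 to 2833 in the unnamed clusters numbered 1 to 5. The 10 genes were left out of the genes used for clustering. Among these 9, Trp63 was highest in the myoepithelial-like cluster at 297 CPM (interval 262 to 335) and lowest in the duct-like cluster at 31.4 CPM (interval 23.4 to 41.3). In the unnamed clusters numbered 1 to 5 it was at 255, 216, 94.9, 193 and 125 CPM, and in the cornifying-like cluster at 71.1 CPM. It was at 463 CPM in a further cluster of 104 barcodes with a median of 754 UMIs. The study uses Trp63 itself among the markers of a stem/progenitor population and of myoepithelial-like cells, which played no part in the naming here.

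The differentiation factors had another pattern. Elf3 was at 115 CPM (interval 103 to 128) in the cornifying-like cluster, 42.5 in the duct-like, 9.04 (interval 3.90 to 17.8) in the myoepithelial-like cluster and 11.2 to 34.9 CPM in clusters 1 to 5. Zfp750 was at 52.5 CPM (interval 44.4 to 61.7) in the cornifying-like, 22.8 in the duct-like and 4.52 in the myoepithelial-like cluster, and at 1.45 to 12.8 CPM in clusters 1 to 5. The cornifying-like cluster held 8.72% of the day-11 UMIs but 34.0% of the Elf3, 45.4% of the Zfp750, 40.4% of the Grhl3 and 47.8% of the Ovol1 UMIs. For Ovol1 this rests on 23 UMIs in the whole library. Grhl1 was also highest there at 47.9 CPM, and Ehf at 542 CPM, while Klf4 was highest in the myoepithelial-like cluster (175 CPM) and next in the cornifying-like cluster (159 CPM).

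Klf5 and Grhl2 varied least among the 9 clusters. Klf5 ranged from 113 to 178 CPM and Grhl2 from 41.1 to 70.6 CPM, over clusters in which Trp63 and Elf3 ranged from 31.4 to 297 and from 9.04 to 115 CPM. Over all 11 clusters, small ones included, the highest level was at least 2 times the lowest for 10 of the 10 genes, as it was for 96.9% of all genes. In the merged 7-day clusters 5 of 10 met this, against 39.5%. In tissue 8 of the 10 did, Trp63 through a single UMI, while 99.6% of the 4101 genes with at least 50 UMIs there met it. Most of the 10 genes have fewer UMIs than that in tissue, so these shares are not comparable. These counts single out no gene. In the merged 7-day clustering Trp63 was at 95.8 CPM in cluster 4, where 96.8% of barcodes had at least 1% Malat1 and the median was 6734 UMIs, and at 29.9 CPM in cluster 3. It was highest in cluster 5 (131 CPM), where 99.0% of barcodes had this Malat1 share and the median was 1878 UMIs. Klf4 (222 and 66.3 CPM), Klf5 (178 and 79.7 CPM) and Grhl3 (14.6 and 4.82 CPM) were also higher in cluster 4 than in cluster 3. The part of the Malat1 share and depth in this was not tested.

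**Figure D4:**
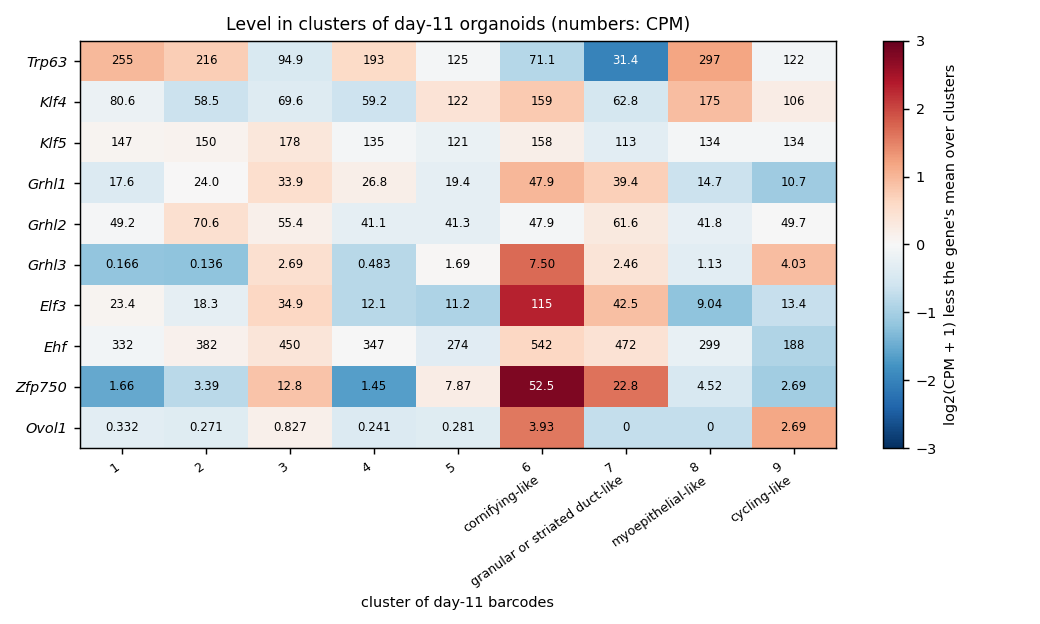
CPM of the 10 genes in the 9 largest day-11 clusters, with the CPM printed in each cell and the color showing log2(CPM + 1) less the gene's mean over the clusters. Trp63 is highest in the myoepithelial-like cluster at 297 CPM, and Elf3, Zfp750, Grhl1, Grhl3, Ehf and Ovol1 are highest in the cornifying-like cluster.

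Barcodes were next ordered by genes outside the set, and the top 25% of barcodes in the order were compared with the bottom 25%. Along the keratin order, the share of the basal keratins Krt5, Krt14 and Krt15 among the UMIs of these and of the simple keratins Krt7, Krt8, Krt18 and Krt19, Trp63 at day 11 was at 70.4, 143, 169 and 190 CPM in 4 equal steps from bottom to top (log2 ratio of top to bottom 1.42, interval 1.22 to 1.61). Elf3 took the opposite course, with 58.5, 33.2, 28.7 and 20.0 CPM (-1.50, interval -1.89 to -1.13). Zfp750 went from 22.5 CPM at the bottom to 11.1 CPM at the top (-0.95, interval -1.48 to -0.44). At day 11 Trp63 was the only gene of the set at least 1.5 times higher at the top, against 4.68% of all genes, and Elf3 and Zfp750 were lower, against 8.84%. Grhl1 (-0.49, interval -0.87 to -0.12) and Ehf (-0.19, interval -0.29 to -0.09) were also lower, by less.

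In the 7-day control the keratin order gave another picture, with other ranges of the share. Basal shares ran from 10.3% to 71.9% in its bottom group and from 83.3% to 100% in its top group. At day 11 these ranges were 0% to 50.0% and 78.8% to 100%. With the limit of 20 keratin UMIs, each of these control groups held 463 barcodes. Their median UMIs were 5755 and 5532, against 899 over all 6494 kept control barcodes. Trp63 was again higher at the top (59.4 to 103 CPM, log2 ratio 0.79, interval 0.52 to 1.06), but so were Zfp750 (1.03, interval 0.74 to 1.33), Grhl3 (1.80, interval 1.10 to 2.53) and Klf5 (0.69, interval 0.49 to 0.88). These 4 genes were at least 1.5 times higher, against 6.86% of all genes, and 0 were lower, against 6.17%. Elf3 had 0.16 (interval 0.00 to 0.31). Barcodes with at least 1% Malat1 made up 41.7% of the bottom and 67.0% of the top group, and over these barcodes alone Trp63 was at 90.1 CPM at the bottom and 127 at the top, under 1.5 times (log2 ratio 0.49, interval 0.17 to 0.81). Zfp750 (1.19), Grhl3 (1.51) and Klf5 (0.60) were higher at the top there too. In photon and proton mSGOs Trp63 had 0.39 and 0.37, Zfp750 0.67 and 0.93, and Grhl1 1.00 and 0.87, while Grhl3 had 1.59 and 0.21.

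Along the cornification order, the share of cornification genes among a barcode's UMIs, the set divided in the 7-day control, with Trp63 lower and several other genes higher toward the top. Elf3 was at 104, 181, 210 and 362 CPM from bottom to top (log2 ratio 1.79, interval 1.65 to 1.94), Grhl1 at 29.1, 45.2, 44.3 and 108 CPM (1.85, interval 1.58 to 2.12), and Ovol1 at 5.63, 12.5, 14.1 and 19.5 CPM (1.63, interval 1.06 to 2.20). Grhl3 (1.26, interval 0.73 to 1.79), Zfp750 (0.94, interval 0.71 to 1.18) and Ehf (0.62, interval 0.49 to 0.74) were higher at the top too. Trp63 was at 105, 56.2, 49.5 and 44.7 CPM (-1.21, interval -1.46 to -0.96). These were 6 genes higher and 1 lower, against 5.20% and 31.0% of all genes. Klf4 (0.22), Klf5 (-0.13) and Grhl2 (-0.36) differed by less than 1.5 times over all kept barcodes.

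The same order in photon mSGOs gave 1.30 for Elf3, 1.25 for Grhl1, 1.04 for Ovol1 and -0.88 for Trp63, and in proton mSGOs 1.56, 1.32, 1.68 and -0.84. Zfp750 had 0.30 for photons and 0.63 for protons, Ehf 0.48 and 0.39, and Grhl3 0.64 and 1.18. Of these, Zfp750 for photons and Ehf for both lay under 1.5 times. The order at day 11 rested mostly on Sprr1a, which held 2430 of the 3088 CPM of the cornification list. At day 7 Sprr1a held 578 of 5216 CPM, so the sizes of the differences are not compared between the days. Elf3 at day 11 was at 1.01 (interval 0.75 to 1.27) and Zfp750 at 0.71 (interval 0.29 to 1.13). These were the 2 genes at least 1.5 times higher, against 2.64% of all genes, and 0 were lower, against 3.81%. Trp63 had -0.24 (interval -0.35 to -0.13). In the control, Malat1 barcodes made up 37.3% of the bottom and 9.80% of the top group. Within barcodes with at least 1% Malat1 the control ratios were larger for Elf3 (2.88), Grhl1 (2.95), Ovol1 (2.95) and Zfp750 (2.33), and nearer 0 for Trp63 (-0.49). Klf4 (0.78, interval 0.59 to 0.97) and Klf5 (0.65, interval 0.43 to 0.88) were past 1.5 times there, Klf5 with the opposite sign. There 8 genes were at least 1.5 times higher and 0 lower, against 11.7% and 24.4% of all genes.

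**Figure D5:**
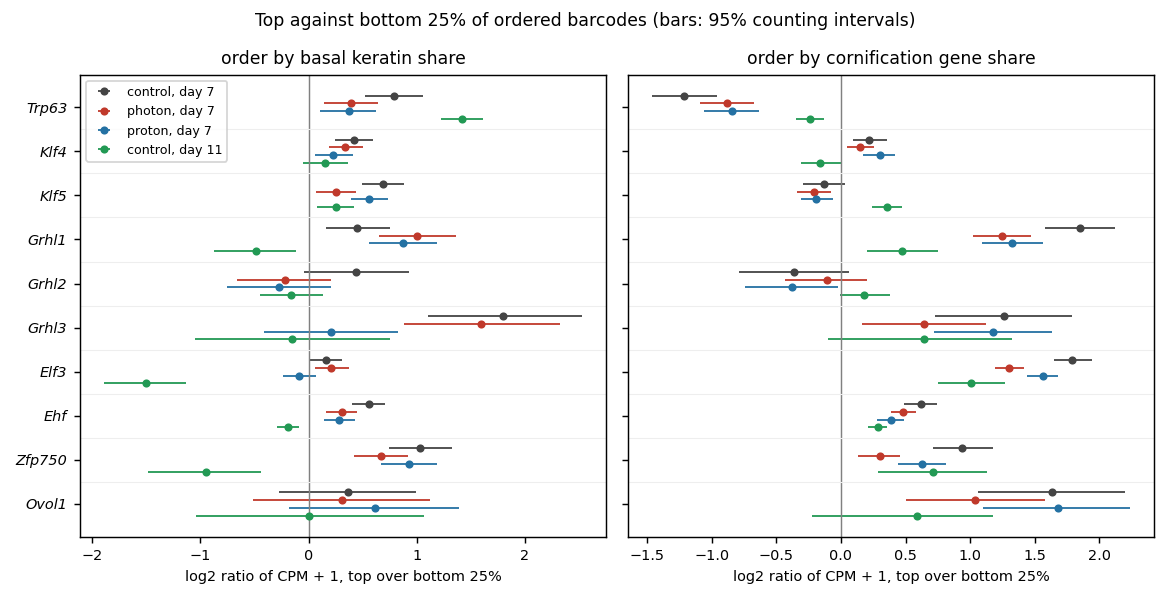
Log2 ratios of CPM in the top against the bottom 25% of barcodes for the 10 genes, along the basal keratin order and the cornification order, in the 4 mSGO libraries, with intervals for counting error. Along the cornification order of the control, 6 genes lie past 1.5 times on the upper side and Trp63 on the lower side.

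Genes most like each of these factors were found by Pearson's r over 34 clusters of the 5 libraries, on log2 CPM with a pseudocount of 10, centred within library, among 9109 genes. Clusters of one library share its depth and base composition, so r is a description. Small clusters count as full points. At day 11 Klf5 (207 and 22.2 CPM) and Grhl2 (122 and 0 CPM) were highest and lowest in clusters of 104 and 33 barcodes. Trp63 was most like Epha7 (0.881), Vldlr (0.880) and Dcbld2 (0.873). Klf4 was most like Prnp (0.902), Fam43a (0.897) and Epn2 (0.895), Klf5 most like Clip4 (0.908), Fam83b (0.899) and Pard3 (0.892), and Grhl2 most like Fto (0.951), Zfp182 (0.930) and Meis1 (0.930). For the differentiation factors, Grhl1 was nearest to Mal2 (0.826), Gjb2 (0.761) and Capn5 (0.744), and Elf3 to the polarity gene Crb3 (0.865), Bspry (0.821) and Rab17 (0.801). Zfp750 was nearest to envoplakin, Evpl (0.839), and to Dusp4 (0.787), and Ehf to Dlg3 (0.840), Ppfibp2 (0.819) and Rabl6 (0.812). Ovol1 was nearest to Sprr2h (0.683), Krt6b (0.674) and Dynap (0.645), and Grhl3 to Tmprss11g (0.720), Krt20 (0.686) and Piga (0.663). Within the set, the most alike pair was Klf5 and Grhl2 (0.805), followed by Elf3 and Grhl1 (0.698), and the least alike pair was Trp63 and Zfp750 (-0.285). Over the 25 organoid clusters alone Klf5 and Grhl2 (0.856) were followed by Klf5 and Ehf (0.846) and by Klf4 and Klf5 (0.795, against 0.320 over all 34), and the least alike pair was Trp63 and Grhl1 (-0.318).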

How the data were processed

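Single-cell RNA-seq (10x Genomics 3′) of mSGOs and gland tissue gave 5 libraries, 1 per group, grouped by the sample labels. The authors deposited whole-number counts of UMIs per gene and barcode. The submitters' processing notes name Cell Ranger 5 and mm10, the study's methods name GRCm39, and the file headers name versions 3.0.1 and 7.0.0. How each run treated intronic reads is not given in the sources used here. The gene set and all lists were chosen with earlier results of these data known.

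Barcodes with at least 200 detected genes and at most 5% mitochondrial UMIs were kept, and doublets were scored in each library with Scrublet in scanpy 1.11.5 and removed (378, 1355, 2559, 855 and 16 for control, photon, proton, day 11 and tissue). Where its automatic threshold marked too few barcodes, a rate of 0.8% per 1000 barcodes set how many of the top-scoring ones were dropped, which was the case for all libraries except photon. UMIs per gene were summed over kept barcodes and scaled to CPM. Ratios are log2 with a pseudocount of 1 CPM, over the 30406 genes in both lists for day 11. Intervals are exact Poisson for CPM, conditional exact binomial for ratios and Clopper-Pearson for shares. A gene was counted at a fold of 1.5 with 50 UMIs or more in the compared libraries together, and the ratio code was tested on simulated counts. No p-value was computed.

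Clustering used 2000 variable genes without the 10 genes, 30 components, 15 neighbours and Leiden (leidenalg 0.10.2) at a resolution of 0.8, and clusters were named from fixed markers, so that names may differ from those of the study. The keratin order took barcodes with at least 20 keratin UMIs, the cornification order those with at least 500 UMIs. Lists were p63-linked basal, grainyhead-linked epithelial and cornification genes, other stratified epithelium regulators, gland regulators, basal and simple keratins, and immune, endothelial and fibroblast markers. Named were the 10 genes, up to 4 genes per list and comparison (the highest and lowest ratios among genes with at least 200 UMIs), and for each of the 10 genes the 3 with the highest Pearson r, of which 1 is not reported here. Alternatives covered doublet and mitochondrial filters, limits on detected genes (2500 in the study's methods), the Malat1 share, thinning, scaling, pseudocount, fold, cluster resolution and the share of ordered barcodes compared (25% or 50%).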

Additional observations from a re-analysis of the deposited data

Results flagged for a closer look

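Klf4 lay on opposite sides of the control in the irradiated libraries, with a log2 ratio of 0.13 after photons and -0.14 after protons, and each interval was off 0. Over barcodes with at least 1% Malat1 the photon ratio was 0.00 (interval -0.09 to 0.10). The other cases set the 11-day against the 7-day control mSGOs, top against bottom 25% of barcodes. Along the basal keratin order, the log2 ratios at day 11 and day 7 were -0.49 and 0.45 for Grhl1, -1.50 and 0.16 for Elf3, -0.19 and 0.56 for Ehf, and -0.95 and 1.03 for Zfp750. The bottom groups of this order were unlike, with basal keratin shares up to 50.0% at day 11 and up to 71.9% at day 7. Along the cornification order Klf4 had -0.16 at day 11 and 0.22 at day 7. Sprr1a held 2430 of the 3088 CPM of that list at day 11 and 578 of 5216 at day 7, so these orders are not alike. In each case the signs were opposite in 1 library against 1 library, and the difference between the effects was not tested.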

How the results depend on the processing

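No paired analysis was possible because each group held 1 library. Counts of the 10 genes past 1.5 times stayed within 1.5 times of the reported count in 158 alternatives and moved in 23. For photons, the count lower (1) became 0 with at least 2500 detected genes, with minimums of 200 UMIs and 20 CPM, and at a fold of 2. It became 2 over Malat1 barcodes (Grhl1 and Ovol1) and, with Grhl3 and Ovol1, under median-of-ratios scaling, totals without the 50 highest genes and a pseudocount of 0.1 CPM. With thinning it stayed 1, but the gene was Grhl3 and not Ovol1. For protons it became 0 under the same minimums and at a fold of 2, and with at least 2500 detected genes it stayed 1, but the gene was Zfp750 and Ovol1 had too few UMIs to be counted. At day 11 the count lower (6) became 3 with at least 2500 detected genes (Klf4, Elf3 and Zfp750). The count higher (3) became 0 under median-of-ratios scaling, which turned Ehf to -0.19, and 0 relative to genes of like span, an alternative added after the data were seen, where Trp63 was -0.59, Grhl2 -0.55 and Ehf -0.31. In the merged 7-day clusters the count with a 2-fold range (5) became 10 at a resolution of 1.2 and 1 at a 4-fold range. Along the keratin order at day 11 the count lower (2) became 1 with 50% groups, with thinning and at a fold of 2, and at day 7 the count higher (4) became 2 with 50% groups and at a fold of 2. Along the cornification order the day-11 count higher (2) became 1 with 50% groups, 0 with thinning and 1 at a fold of 2, and the day-7 count lower (1) became 0 over Malat1 barcodes. The cause was not tested. Leaving out shared barcodes changed no call. Few UMIs limit Grhl3 and Ovol1 at day 11 and all genes except Klf4 and Ehf in tissue.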

Other observations

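The basal keratins lay below the median log2 ratio of all genes (1.00) at day 11. Krt14 was at 1661 CPM against 5917 at day 7 (log2 ratio -1.83) and Krt5 at 1028 against 1861 (-0.86), whereas Krt15 was at 837 against 555 (0.59). Esrrg, a nuclear receptor gene among the gland regulators, was at 428 CPM at day 11 and at 0.126 CPM (2 UMIs) at day 7 (log2 ratio 8.57, interval 8.20 to 8.72). Its ratio was not set against genes of like span. In tissue, where all 10 genes were lower, Barx2, a homeobox gene of the list of other stratified regulators, was higher (17.0 against 6.57 CPM, log2 ratio 1.25, interval 0.88 to 1.62), and the acinar factor Bhlha15 was at 36.6 CPM with 0 UMIs in the 7-day control.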
